A study of Mus musculus with 6 samples.

Results

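The SIBLING genes encode the acidic phosphoproteins of bone and dentine matrix, a family whose name stands for small integrin-binding ligand, N-linked glycoprotein. The rows of the deposited count table with the symbols Spp1, Ibsp, Dmp1 and Mepe were taken, which gave 4 of 17491 listed genes. RNA had been sequenced from osteoblasts grown from wildtype mouse mesenchymal stem cells of tibial and femoral marrow. All cultures, control and treated, were collected at day 7 of osteogenic culture, the medium being supplemented with ascorbic acid, β-glycerophosphate and dexamethasone. There were 3 control libraries and 3 libraries from cultures treated with verapamil, a blocker of L-type calcium channels, and the comparison asks how the drug changes expression in these cells. The verapamil dose and the length of exposure are not given in the labels, nor is it said whether replicates were separate animals or cultures. The p-values are therefore relative to the scatter of these libraries alone, and that scatter may be technical.

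SIBLING proteins are secreted by osteoblasts and osteocytes, bind integrins through an arginine-glycine-aspartate motif and carry many phosphates, added in the secretory pathway by the kinase FAM20C. In mineralised matrix they bind hydroxyapatite and collagen and act on crystal growth, some promoting it and others, when phosphorylated or cut to their acidic peptides, slowing it. Dmp1 and Mepe are known as genes of late osteoblasts and osteocytes and Ibsp of mineralising osteoblasts, whereas Spp1, which encodes osteopontin, is also strongly expressed by macrophages and osteoclasts.

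The 4 genes lie together on the plus strand of chromosome 5 (GRCm38), within 243 kb. In order they are Dmp1 (Entrez 13406, 104197575 to 104214102), Ibsp (Entrez 15891, 104299287 to 104311472), Mepe (Entrez 94111, 104325329 to 104338611) and Spp1 (Entrez 20750, 104435111 to 104441053). Since the log2 fold changes of these adjacent genes ranged from -4.43 to 0.25, the 250 bases before their start sites are shown for comparison. The sequences are from RefSeq (GRCm38.p6), which matched all 4 genes and lists 2 starts each for Dmp1 and Spp1. Counts per gene do not show which start was used. Capitals mark the core of the site bound by RUNX factors (TGTGGT, or ACCACA on the other strand) and the CCAAT box (here always read as ATTGG).
Dmp1 first start, chr5:104197325-104197574, plus strand: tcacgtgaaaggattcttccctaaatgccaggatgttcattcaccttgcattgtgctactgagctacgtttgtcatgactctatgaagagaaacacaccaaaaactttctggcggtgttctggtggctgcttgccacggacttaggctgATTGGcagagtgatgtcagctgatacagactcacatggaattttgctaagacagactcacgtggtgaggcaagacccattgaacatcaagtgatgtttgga
Dmp1 second start, chr5:104202367-104202616, plus strand: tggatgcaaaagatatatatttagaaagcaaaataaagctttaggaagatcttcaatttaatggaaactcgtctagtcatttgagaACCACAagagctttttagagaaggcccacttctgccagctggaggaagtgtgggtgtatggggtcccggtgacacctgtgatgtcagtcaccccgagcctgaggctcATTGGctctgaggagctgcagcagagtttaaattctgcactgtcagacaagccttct
Ibsp, chr5:104299037-104299286, plus strand: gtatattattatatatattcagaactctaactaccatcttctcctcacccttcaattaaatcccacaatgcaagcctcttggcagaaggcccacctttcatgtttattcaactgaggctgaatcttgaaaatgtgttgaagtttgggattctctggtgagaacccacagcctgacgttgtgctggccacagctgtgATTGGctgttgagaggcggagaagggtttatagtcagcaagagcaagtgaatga
Mepe, chr5:104325079-104325328, plus strand: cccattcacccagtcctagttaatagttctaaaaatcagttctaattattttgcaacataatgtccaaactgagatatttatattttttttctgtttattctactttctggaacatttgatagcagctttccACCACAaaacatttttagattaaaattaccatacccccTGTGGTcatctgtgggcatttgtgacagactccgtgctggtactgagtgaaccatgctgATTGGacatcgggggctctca
Spp1 first start, chr5:104434861-104435110, plus strand: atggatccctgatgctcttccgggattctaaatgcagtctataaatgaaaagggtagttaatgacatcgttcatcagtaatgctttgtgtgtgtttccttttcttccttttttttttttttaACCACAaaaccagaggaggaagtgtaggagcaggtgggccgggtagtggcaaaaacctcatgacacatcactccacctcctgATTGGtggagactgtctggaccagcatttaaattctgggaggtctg

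A CCAAT box in reverse orientation stood before each of these 5 starts. Its leftmost base was at -101 and -57 before the first and second Dmp1 starts, -54 before Ibsp, -21 before Mepe and -46 before Spp1, counting -1 as the last base before the start. CCAAT on either strand was present in 33.8% of 32851 RefSeq promoter windows of the same length. The RUNX core was found once before the second Dmp1 start (-164) and once before the first Spp1 start (-128). Mepe had it at -118 and -80, and it was not found in the windows of the first Dmp1 start, Ibsp or the second Spp1 start. It was present in 14.0% of all windows. The other motifs were also searched on both strands. The TATA box, as TATAAA, was found reversed at -28 before Ibsp and at -173 before Mepe, and forward at -211 before Spp1 (12.4% of all windows). The core of the hypoxia response element, as ACGTG, was found only before the first Dmp1 start, with 4 matches that read both strands of 2 palindromes (forward matches at -248 and -43), and in 16.6% of all windows. The homeodomain core TAATTA was found in Mepe at -208 and before the second Spp1 start, not printed, at -122 (4.84% of all windows), and the AP-1 site TGANTCA in none (6.75% of all windows). These are letter matches and not measured binding sites. Mepe, lower in every verapamil library but without a test in the main fit, held the RUNX core and the CCAAT box. The first start of Spp1, a gene that did not pass the test, held both as well, and the second Spp1 start held neither. Any part of these motifs in the changes was not tested.

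Libraries held 18227793 to 21705960 estimated reads, and the SIBLING genes spanned nearly the whole range of expression in them. Levels are TMM-normalised counts per 1000000 reads (CPM), given as mean ± SD over n = 3 libraries per group. To compare genes, CPM was divided by the length of the longest annotated coding transcript. On that scale Spp1 was at 6493 ± 978 CPM per kb in control libraries, Ibsp at 3524 ± 580, Dmp1 at 28.8 ± 7.51 and Mepe at 0.376 ± 0.168. With verapamil the order was the same, with Spp1 at 7731 ± 853, Ibsp at 1789 ± 114, Dmp1 at 1.32 ± 0.311 and Mepe at 0.073 ± 0.0382 CPM per kb. Neighbours in this order did not overlap over the 3 libraries of either group. Among 16509 genes with a length, Spp1 was first per kb in each control library and second in each verapamil library. The remaining family member of the cluster, Dspp, which encodes the sialophosphoprotein of dentine, had 1 read in control replicate 3 and 0 in the other 5 libraries, where a count of 0 allows up to 3.

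Osteoblast markers were present, and markers of other cells moved with treatment. Of 9 osteoblast markers, 8 fell, most of all Ifitm5, Col1a1, Bglap and Sp7, with a median log2 fold change of -0.95. The summed level of all 9 was 15487 to 23233 CPM in controls and 5731 to 6713 CPM with verapamil. Most of that sum was Col1a1, at a mean of 17067 CPM in controls and 5387 CPM with verapamil. Of 15 macrophage markers, 11 rose and 1 fell, with a median of 0.47 and sums of 9515 to 11927 and 16991 to 19099 CPM, and none was at 0. Lyz2 was the largest part of these sums, at a mean of 5536 CPM in controls and 11197 CPM with verapamil. Of 6 tested osteoclast markers 3 fell and 1 rose (summed 366 to 396 and 334 to 359 CPM), and Ocstamp, Dcstamp, Calcr and Oscar were too low to test. Most of these sums was Ctsk, at a mean of 268 CPM in controls and 236 CPM with verapamil. Chondrocyte markers fell in 5 of 5 tested, endothelial markers in 2 of 5 and adipocyte markers in 1 of 3, with 1 adipocyte marker and the 1 tested neutrophil marker higher. Hypoxia response genes varied widely among the controls, summing to 2858, 4642 and 1605 CPM in control replicates 1, 2 and 3. With verapamil they summed to 966 to 1154 CPM. Of these 12 genes 11 fell, but 7, 5 and 6 did without verapamil replicates 1, 2 and 3, and 7 without the filter on low counts. Of the osteoclast markers, 1 instead of 3 fell on omitting control replicate 1 or any verapamil replicate, and 2 rose on omitting control replicate 2. Omitting any library but control replicate 2 removed the call of Plin1, the adipocyte marker that fell. Omitting any but control replicate 1 removed the neutrophil call. The part of these markers in the results on SIBLING genes was not tested. In bulk RNA, fewer cells of a type and less RNA per cell cannot be told apart.

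Dmp1, which encodes dentin matrix protein 1, a regulator of mineralisation and of phosphate balance in osteocytes, fell furthest of the family. Control replicates 1, 2 and 3 had 96.7, 56.6 and 85.9 CPM, and verapamil replicates 1, 2 and 3 had 2.82, 3.61 and 4.54 CPM. Every verapamil library lay far below the lowest control, and control replicate 2 was the lowest of the controls. From 79.7 ± 20.8 to 3.65 ± 0.861 CPM, Dmp1 fell 21.6-fold, a log2 fold change of -4.43 ± 0.27 SE with a 95% interval of -5.07 to -3.80 (edgeR quasi-likelihood test, adjusted p = 0.000217). Of 13366 genes tested it ranked 3 by size of fall. The verapamil values rest on 53 to 101 reads per library, and the control values on 1059 to 2059. Without control replicate 2 the log2 fold change was -4.63.

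Ibsp, which encodes bone sialoprotein, a nucleator of hydroxyapatite that is made as osteoblasts begin to mineralise, fell 1.97-fold and stayed abundant. It was at 7530, 5985 and 8346 CPM in control replicates 1, 2 and 3, and at 3571, 3555 and 3971 CPM in verapamil replicates 1, 2 and 3. The groups did not overlap, and the lowest control was again replicate 2. Its mean went from 7287 ± 1199 to 3699 ± 235 CPM, and the log2 fold change was -0.98 ± 0.13 SE, with a 95% interval of -1.28 to -0.67 (edgeR, adjusted p = 0.001505). Ibsp ranked 4 to 9 among all genes by CPM in the controls and 13 to 16 with verapamil. Leaving out control replicate 2 gave a log2 fold change of -1.11.

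Mepe, which encodes the matrix extracellular phosphoglycoprotein of osteocytes, was scarcely expressed. Its CPM in control replicates 1, 2 and 3 were 0.705, 0.321 and 0.873, and those in verapamil replicates 1, 2 and 3 were 0.0532, 0.135 and 0.18. The groups did not overlap, but the highest library held only 19 reads and the lowest 1. Mepe did not pass the filter on low counts, so it has no test in the fit used for the others. Summed over libraries it had 40 reads in controls and 8 with verapamil, a ratio per sequenced read of 4.85 (95% exact interval 2.24 to 12, counting error only). When all genes were tested without the filter, its log2 fold change was -2.29 ± 0.58 SE (edgeR, adjusted p = 0.01629). With a library left out, Mepe passed the filter in 4 of 6 cases, and adjusted p was 0.06293 without verapamil replicate 1, 0.05934 without verapamil replicate 2, 0.04063 without verapamil replicate 3 and 0.002811 without control replicate 2.

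Spp1, which encodes osteopontin, an abundant inhibitor of crystal growth and a ligand of integrins and CD44, did not pass the test. Its level was 10793, 10469 and 8094 CPM in control replicates 1, 2 and 3 and 12392, 12394 and 10167 CPM in verapamil replicates 1, 2 and 3. The groups overlapped, since verapamil replicate 3 lay below control replicates 1 and 2. The means were 9785 ± 1474 and 11651 ± 1285 CPM, and the log2 fold change of 0.25 ± 0.14 SE did not pass the test (edgeR, adjusted p = 0.2168). Its 95% interval ran from -0.08 to 0.58, or from 0.948-fold to 1.5-fold, a range that holds both no change and a moderate rise. By CPM, Spp1 ranked 3 to 5 among all genes in the control libraries and 1 or 2 in the verapamil libraries.

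Of the 3 members tested, 2 fell and 0 rose. Over all 13366 genes tested, 31.7% were called, 16.3% lower and 15.4% higher, and these shares also apply beside the counts of every gene list here. Groups did not overlap in 2 of the 3 members, against 49.6% of all genes tested. With so many genes called in the whole table, the count of 2 among 3 is no result about the family as a set.

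**Figure D1:**
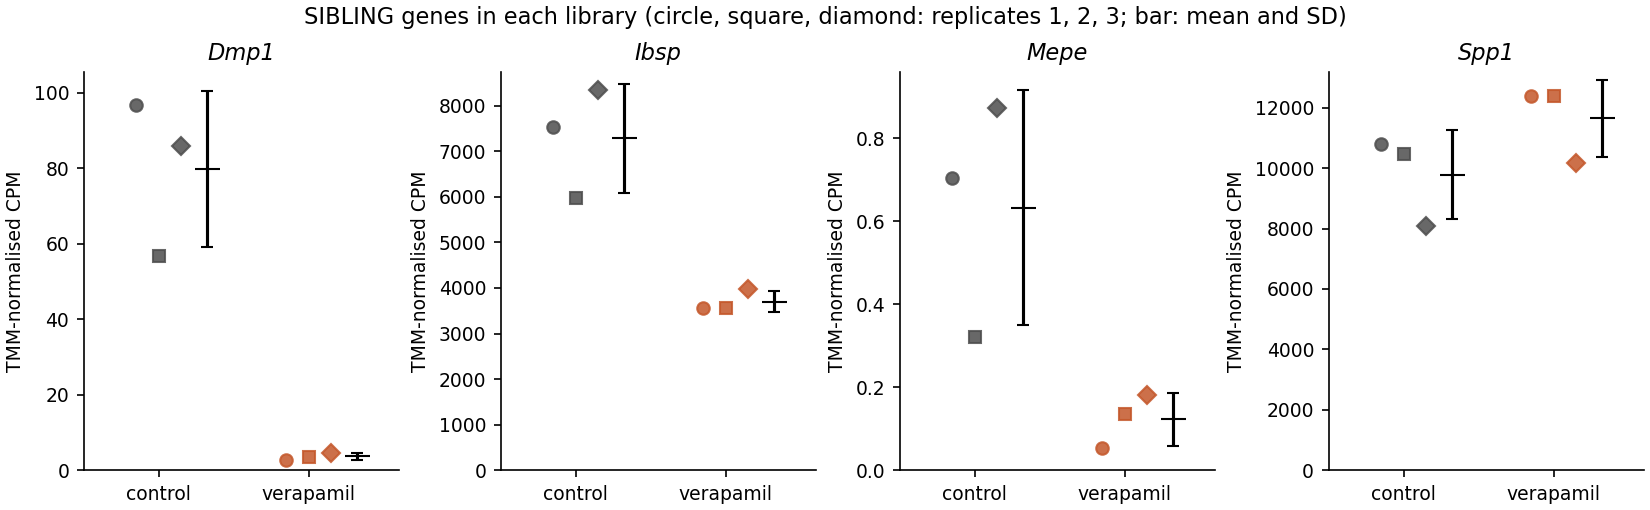
TMM-normalised CPM of Dmp1, Ibsp, Mepe and Spp1 (y axes, each from 0) in the control and verapamil libraries, with symbols for replicates 1, 2 and 3 and bars for the mean and SD over 3 libraries. Dmp1 goes from 79.7 to 3.65 CPM and Ibsp from 7287 to 3699 CPM without overlap, while the Spp1 values of the groups overlap.

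The share of Spp1 in the reads of the 4 genes was higher in every verapamil library than in any control. These shares are of CPM not divided by transcript length. Spp1 made up 58.6%, 63.4% and 49.0% of the CPM summed over the 4 genes in control replicates 1, 2 and 3, and 77.6%, 77.7% and 71.9% in verapamil replicates 1, 2 and 3. Ibsp made up 36.3% to 50.5% in controls and 22.3% to 28.1% with verapamil. Dmp1 accounted for 0.343% to 0.525% in controls and 0.0176% to 0.0321% with verapamil. The summed level itself was 16511 to 18420 CPM in controls and 14142 to 15966 CPM with verapamil.

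Ratios between genes within a library do not depend on how libraries are scaled, and 6 pairs were compared. The log2 ratio of Spp1 to Ibsp counts was 0.52, 0.81 and -0.04 in control replicates 1, 2 and 3 and 1.80, 1.80 and 1.36 in verapamil replicates 1, 2 and 3, a difference of 1.22. That of Spp1 to Dmp1 went from 6.96 ± 0.51 to 11.65 ± 0.49 (SD, n = 3), a difference of 4.69. The ratio of Ibsp to Dmp1 went from 6.54 ± 0.23 to 10.00 ± 0.27, a difference of 3.46, and it was higher in each verapamil library than in any control. For each of the 6 pairs the groups did not overlap and the exact two-sided permutation test gave p = 0.10, also after adjustment over the pairs, which is the smallest that 3 against 3 libraries allow. The 3 pairs with Mepe rest on its few reads, and their differences changed with the constant added to the counts. The difference for Ibsp to Mepe was 1.19 with 0.5 added and 0.27 with 5 added.

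**Figure D2:**
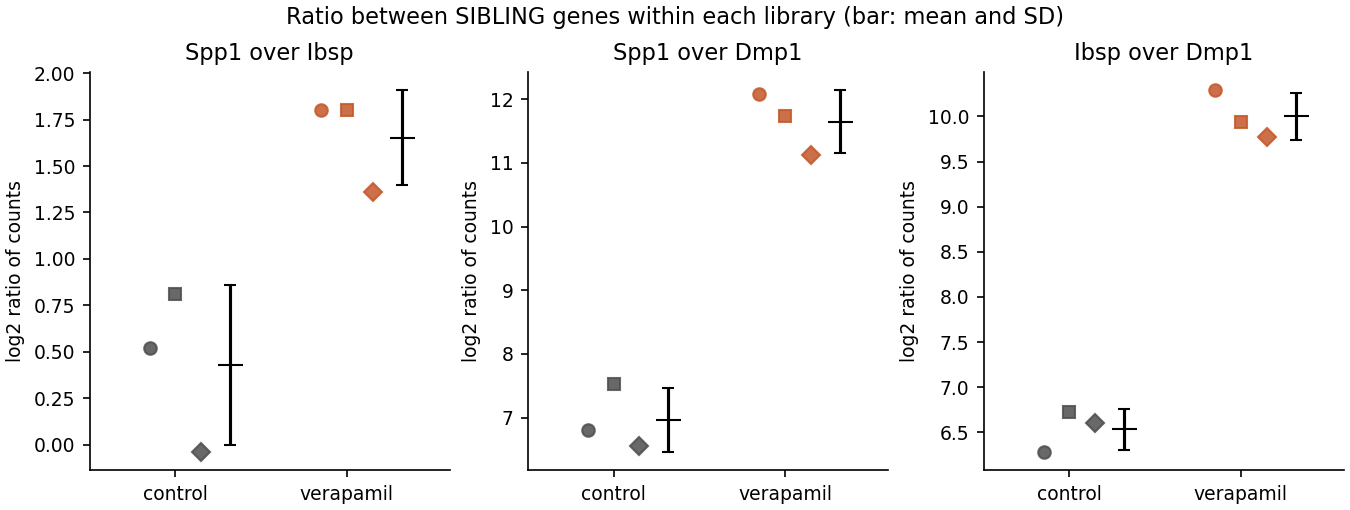
Log2 ratio of the counts of 2 SIBLING genes within each library (y axes do not start at 0), for control and verapamil, with symbols for replicates 1, 2 and 3 as in the plot of levels and bars for the mean and SD. All 3 ratios are higher in each verapamil library than in any control, by 1.22, 4.69 and 3.46 on average.

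Among the controls, Dmp1, Ibsp and Mepe were each lowest in control replicate 2, and Spp1 was lowest in control replicate 3. Spread relative to the mean in controls was 26.1% for Dmp1, 16.5% for Ibsp, 44.7% for Mepe and 15.1% for Spp1, and with verapamil it was 23.5%, 6.37%, 52.3% and 11%. Phex, the endopeptidase that acts on SIBLING peptides, had the same low point, with 6.72, 3.95 and 8.96 CPM in control replicates 1, 2 and 3. Col1a1, the main collagen chain of bone, was highest in control replicate 2, at 22178 CPM against 14854 and 14170 CPM in control replicates 1 and 3.

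The genes whose profile was most like each member were found by the root mean square difference of centred log2 CPM over the 6 libraries. The search covered 10565 genes, all averaging 5 CPM or more. The libraries share the treatment contrast, which dominates this measure. Nearest to Ibsp were Bglap2, an osteocalcin gene, at a difference of 0.06, and Omd, which encodes the matrix proteoglycan osteomodulin, and Cd200, a membrane glycoprotein gene, both at 0.10. Bglap2 was at 34.3, 27.9 and 35.2 CPM in control replicates 1, 2 and 3 and at 15.8, 15.7 and 19.1 CPM in verapamil replicates 1, 2 and 3, low in control replicate 2 as Ibsp was. Reads of Bglap2 can be shared with its near-identical neighbour Bglap. Dmp1 had no close match, the nearest being Megf10, an engulfment receptor gene, at 0.72, followed by Egln3, a prolyl hydroxylase gene induced by low oxygen, at 0.95, and Mgarp, a mitochondrial protein gene, at 1.07. Egln3 differed from Dmp1 among the controls, being highest in control replicate 2 (66.1 CPM, against 36.2 and 17.7 CPM in control replicates 1 and 3), where Dmp1 was lowest. C1qtnf3 (0.26), Panx3 (0.31) and Tbx2 (0.35) were nearest to Mepe, and Cklf (0.08), Mecr (0.08) and Lsm10 (0.09), all under 15 CPM, were nearest to Spp1. For Mepe, with 1 to 19 reads per library, the prior count of 2 in log2 CPM shrinks the difference between groups. Its matches are to that shrunken profile.

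No other tested gene near the cluster fell as far as Dmp1. Within 500 kb of the cluster the table listed 15 other genes. Of the 12 that were tested, 2 fell, 1 rose and 9 did not pass. These counts are near the shares over all genes tested, 16.3% lower and 15.4% higher. Sparcl1, a secreted relative of osteonectin placed at -118.5 kb from the Dmp1 start, fell from 9.50 ± 0.494 to 4.21 ± 0.428 CPM (log2 fold change -1.17 ± 0.12 SE, edgeR adjusted p = 0.0004507). Pkd2, the polycystin cation channel gene that follows Spp1, fell from 229 to 172 CPM (-0.41 ± 0.05 SE). Abcg3, a transporter gene at the far end, rose by 0.49 ± 0.14 on the log2 scale, a call lost without control replicate 3 (adjusted p = 0.06185) or any 1 of verapamil replicates 1, 2 and 3 (0.1074, 0.08667 and 0.08911).

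**Figure D3:**
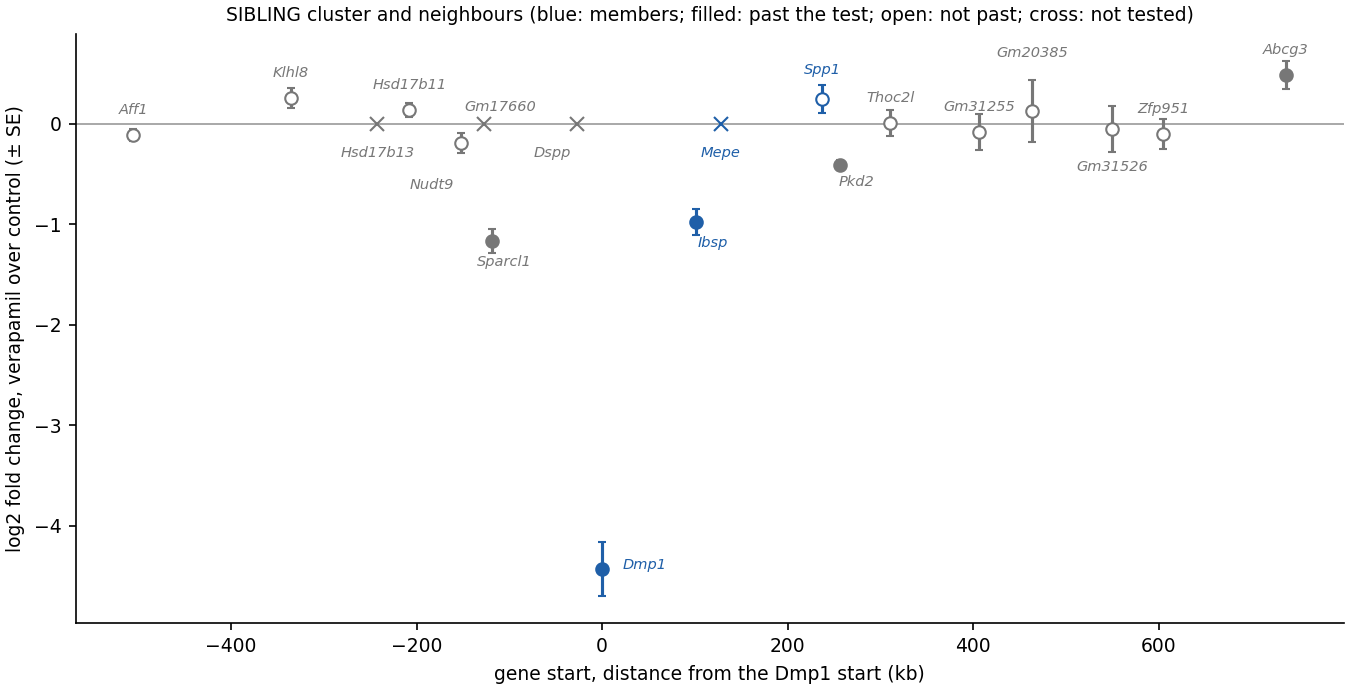
Log2 fold change of verapamil over control with its SE (y axis) for each listed gene of the window, placed by the distance of its start from the Dmp1 start in kb (x axis), with SIBLING genes in blue, filled points past the test, open points not past it and crosses at 0 for genes that were not tested. Dmp1 at -4.43 lies apart from all others, and Spp1, 237.5 kb away, is at 0.25.

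Of 17 tested genes whose products modify or cut SIBLING proteins, 8 fell, 2 rose and 7 did not pass, with a median log2 fold change of -0.35, where the median of all genes tested was 0.01. The glycosyltransferase gene Galnt3, whose best-known substrate is FGF23, fell from 12.6 ± 1.86 to 3.28 ± 0.185 CPM (-1.94 ± 0.14 SE, edgeR adjusted p = 0.0001366). Phex fell from 6.54 ± 2.51 to 2.77 ± 0.242 CPM (-1.24 ± 0.28 SE), Alpl, the phosphatase gene of mineralising cells, fell by 0.75, and Fam20a, the partner of the kinase, fell by 0.73. The kinase gene Fam20c itself fell from 17.8 ± 0.945 to 13.9 ± 1.11 CPM (-0.36 ± 0.09 SE), and Bmp1, which encodes a protease that cuts DMP1, fell by 0.59. Those that rose were Ctsb, the lysosomal cathepsin B gene, by 0.59, and Xylt1, a xylosyltransferase gene, by 0.48. Fam20c, Bmp1, Ctsb and Xylt1 were named after their values were seen. Ctsb is strongly expressed in macrophages, whose 15 markers summed to 9515 to 11927 CPM in controls and 16991 to 19099 CPM with verapamil, and their part in its level was not tested. Calls of several were lost when 1 library was left out, and 4 instead of 8 were lower without verapamil replicate 2. The Phex call was lost on omitting control replicate 1, verapamil replicate 1 or verapamil replicate 2 (adjusted p = 0.05161, 0.06075 and 0.05576), Fam20a without verapamil replicate 2 (0.05386) and Fam20c without verapamil replicates 2 or 3 (0.07518 and 0.05301). With the replicate number as a block Fam20c did not pass either (0.05397). On leaving out 1 library, Xylt1 passed only when that was control replicate 3 (adjusted p = 0.06969 to 0.179 otherwise). It also did not pass with the replicate block (0.09907), the DESeq2 test (0.0696) or limma-voom (0.05057). The number of genes of the list that rose was 1 with the block, with limma-voom and without control replicate 1 or any verapamil replicate.

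The receptors for SIBLING proteins are integrins and the hyaluronan receptor CD44. Of 10 tested, 7 fell, 0 rose and 3 did not pass, with a median of -0.55, and 4 fell when any 1 verapamil replicate was left out. Itgb3, whose product joins the αv chain to form the classic osteopontin receptor, was at 28.7, 32 and 29.1 CPM in control replicates 1, 2 and 3 and at 18.1, 16.2 and 17.2 CPM in verapamil replicates 1, 2 and 3. It fell by 0.80 on the log2 scale (edgeR adjusted p = 0.0003852), and the β1 chain gene Itgb1 fell by 0.58. Itga5, the α5 chain gene, fell by 1.15 and Itgb8 by 0.80, but neither passed without any 1 of verapamil replicates 1, 2 and 3 (adjusted p = 0.05630 to 0.08771), nor Itgb8 without control replicate 1 (0.06975). Itga5 was not past the test without the low-count filter either (adjusted p = 0.0794). Without control replicate 2 or without control replicate 3, 1 receptor was higher.

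Most transcription factors that are known to act on SIBLING promoters did not pass the test. Of 19 tested, 6 fell, 1 rose and 12 did not pass, with a median of -0.17. Beside the 16.3% lower and 15.4% higher over all genes tested, this count is no result about the factors as a set. Sp7, the osterix gene, was 119, 118 and 118 CPM in control replicates 1, 2 and 3 and 53.3, 54.9 and 59.6 CPM in verapamil replicates 1, 2 and 3 (-1.08 ± 0.06 SE, edgeR adjusted p = 7.08e-05). Runx2, whose product binds the core marked in the promoters above, fell by 0.50, and Mef2c, a calcium-responsive factor gene, fell by 0.72. Dlx3, a homeodomain factor gene at 1.16 ± 0.451 and 0.374 ± 0.147 CPM, fell by 1.62, a call lost when control replicate 1, verapamil replicate 1 or verapamil replicate 3 was omitted (adjusted p = 0.07393, 0.07357 and 0.07146). The 1 that rose was Fos (0.33), named after its value was seen, and the same omissions ended its call (0.05938, 0.09121 and 0.08167), as did the replicate block (0.05806). Without control replicate 2, 10 of these factors were lower and 2 higher, and 2 were higher without control replicate 3.

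**Figure D4:**
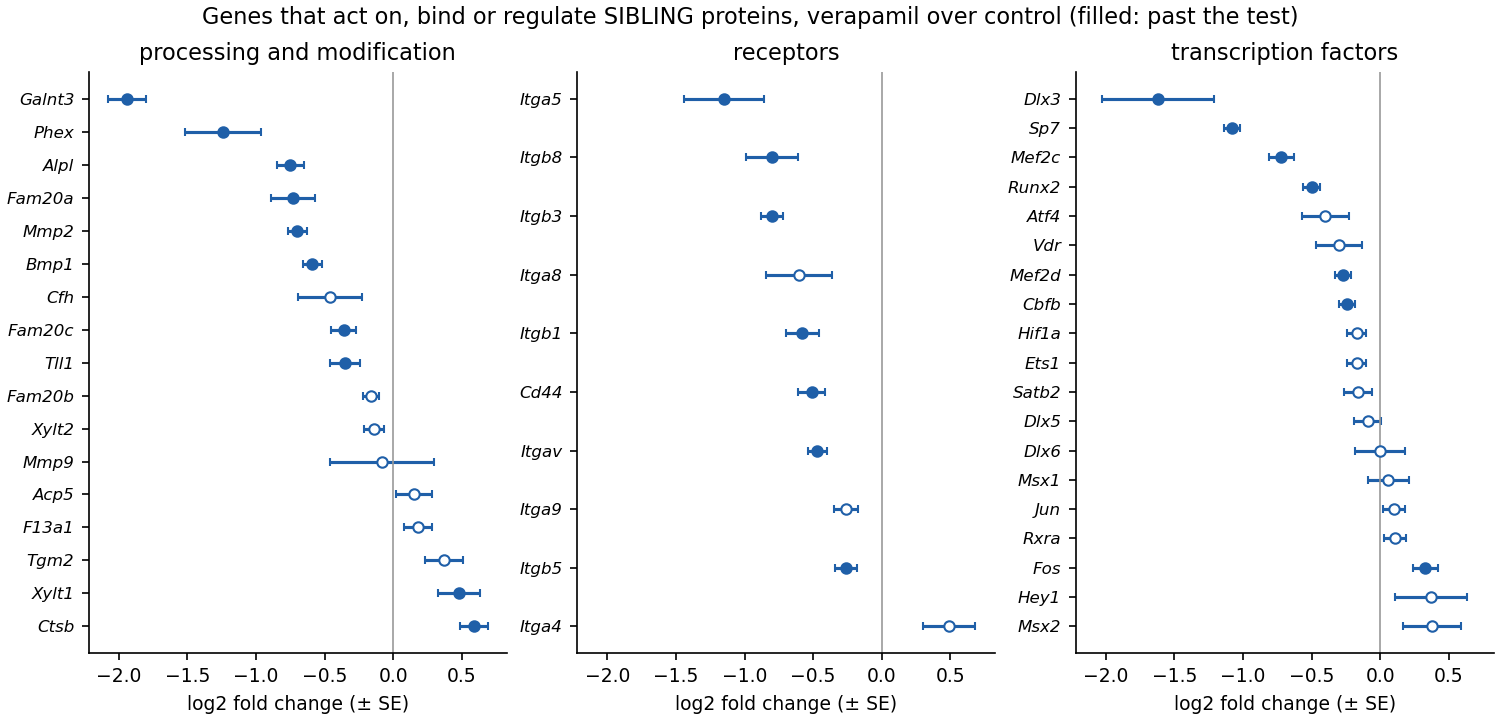
Log2 fold change of verapamil over control with its SE (x axes) for each tested gene of 3 groups: genes whose products modify or cut SIBLING proteins, their receptors, and transcription factors known to act on their promoters. Filled points passed the test: 8 of 17 in the first group and 7 of 10 in the second lie below 0 and are filled, and Galnt3 at -1.94 is the lowest.

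Of 14 tested genes for other bone matrix proteins 12 fell, 0 rose and 2 did not pass, and all 14 log2 fold changes were below 0, with a median of -0.88, beside -0.98 for Ibsp and 0.25 for Spp1. Col1a1 and Col1a2, the chains of collagen I, fell by 1.66 and 1.28, and Bglap, an osteocalcin gene, fell by 1.16. Of 9 tested genes of mineralisation and phosphate handling, 8 fell, 0 rose and 1 did not pass, with a median of -1.21, and 1 rose without control replicate 3. Ifitm5, an osteoblast membrane protein gene, fell by 2.15 from under 1 CPM. Smpd3, a sphingomyelinase gene needed for bone mineralisation, fell by 1.33, and the matrix vesicle phosphatase gene Phospho1 fell by 1.21. Among 6 tested osteocyte markers 5 fell, Dmp1 included, with a median of -1.02, but 2 did when control replicate 1 was omitted and 3 when verapamil replicate 1 or 2 was. The osteocyte markers Sost and Kera have no row under those symbols in the deposited count table, and Fgf23 and Mepe were too low to test.

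Spp1 is the member that macrophages also make in quantity. Of 7 genes reported for osteopontin-rich macrophages 4 rose, 1 fell and 2 did not pass, with a median log2 fold change of 0.52. Their summed level was 3648 to 3798 CPM in controls and 6395 to 6802 CPM with verapamil, where Gpnmb was the largest part. Gpnmb, a transmembrane glycoprotein gene, was at 1138, 1069 and 1237 CPM in control replicates 1, 2 and 3 and at 3517, 3604 and 3431 CPM in verapamil replicates 1, 2 and 3. It rose by 1.62 on the log2 scale (edgeR adjusted p = 7.084e-05), and Trem2, a lipid-sensing receptor gene, rose by 0.78. Fabp5 rose by 1.26 and Lgals3 by 0.52, and the Lgals3 call was lost on omitting control replicate 1 or any verapamil replicate (adjusted p = 0.06525 to 0.09641). The 1 that fell, Cd9, was named after its value was seen, and 0 of the list fell under those same omissions. The share of Spp1 RNA that came from macrophages was not tested, nor was which cells expressed these 7 genes.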

How the data were processed

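The table deposited by the authors holds 1 estimated count (read count, per the file headers) per gene and library, not scaled to depth or length, and 67.7% of its values are not whole. The submitters' processing notes name the build GRCm38 (mm10). Aligner, counter, annotation and strand setting: not given in the sources used here. Reads of overlapping genes therefore cannot be told apart. Counts were rounded, filtered with filterByExpr (minimum count 10, minimum total 15; 13366 genes tested, 4125 left out), scaled with TMM factors and tested over the whole table with edgeR 4.0.16 in R 4.3.3 (robust quasi-likelihood fit, group only, Benjamini-Hochberg adjustment, threshold 0.05). Each SE was obtained by dividing the size of the log2 fold change by √F. Alternatives used DESeq2 1.42.0 and limma 3.58.1. Log2 CPM used a prior count of 2. Lengths came from GENCODE for 16509 genes and positions from RefSeq for 17360. The members and the gene lists were chosen with earlier results of these data known, so they are described and not tested as sets. In each list, the genes named are up to 4 that passed and changed most, save where stated. The fit was tested on simulated data, where the share of false calls was above the nominal threshold. No replicate pair was as alike as sampling noise allows, so no library was merged. Chi-square per degree of freedom was 12.7 to 50.2 for pairs of controls and 3.59 to 6.24 for pairs of verapamil libraries. Controls thus scattered more, while the fit used the same dispersion for both groups of a gene.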

Additional observations from a re-analysis of the deposited data

How the results depend on the processing

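Dmp1 and Ibsp kept their direction and passed the test under every alternative, and Spp1 stayed above 0 and passed under none. These were DESeq2 size factors, upper-quartile scaling, library totals alone, no filter, a filter of 5 CPM in 3 libraries, the DESeq2 test, limma-voom, unrounded counts, the replicate block and the omission of each library. Dmp1 ranged from -4.63 to -4.27, Ibsp from -1.11 to -0.87 and Spp1 from 0.13 to 0.34 on the log2 scale, with the lowest adjusted p for Spp1, 0.07946, on library totals alone. The number of genes called depended more on the libraries. With 1 library left out, 1009 to 2452 genes were higher and 1222 to 2590 lower, against 2055 and 2180 with all 6, and omitting control replicate 1 or any verapamil replicate lowered the first count more than 1.5 times. On library totals alone 2829 genes were higher and 1615 lower. For the lists and for all genes, unrounded counts were chosen after seeing the data. The submitters describe the libraries as 3 pairs but not what a pair shares, and same-numbered libraries did not deviate together (correlations -0.079, -0.313 and -0.242), so the number was not used as a block. With it as a block, 1364 genes were higher and 1589 lower, and the log2 fold changes of Dmp1, Ibsp and Spp1 were -4.41, -0.97 and 0.26, on the same side of the threshold. Sign flips over 3 pairs cannot give p below 0.25. With 5 in place of 0.5 added to each count, the log2 ratio differences were 1.49 for Spp1 to Mepe and -3.11 for Dmp1 to Mepe, against 2.42 and -2.27. With 1 to 19 reads per library, depth limits what can be said of Mepe.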
